A study of Mus musculus with 19 samples.

Results

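Myokines are proteins that skeletal muscle releases into the blood or into its own matrix, through which it can act on fat, liver, bone, brain and on itself. Besides musclin, the subject of the study, 9 genes that encode proteins widely described as myokines were followed, chosen by symbol from the gene-name columns of the deposited tables: *Fndc5*, *Mstn*, *Il15*, *Il6*, *Metrnl*, *Fstl1*, *Sparc*, *Bdnf* and *Dcn*. All 9 are among the 55573 genes of the table of 7 tissues and the 55487 genes of the table of brown adipose tissue (BAT), and 6 of them are among the 13756 genes of the table of inguinal white adipose tissue (iWAT), where *Mstn*, *Il6* and *Bdnf* were not analysed here.

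The RNA-Seq data consist of 19 libraries. There was 1 library each of tibialis anterior (TA) muscle, heart, brain, white adipose tissue, brown adipose tissue, small intestine and liver of wild type (WT) C57BL/6J mice, with no treatment stated, whose age and white fat depot are not given in the sources used here. A further 12 libraries came from iWAT and BAT of male mice aged 5 months, kept at 8 °C for 1 week, with 3 WT and 3 MCK-Musclin mice for each depot. All of these mice, controls included, were exposed to cold. MCK-Musclin mice carry the *Musclin* coding sequence behind the promoter of the muscle creatine kinase gene, which is active in skeletal muscle, on a C57BL/6J background. Of the 5 founder lines of the study, the one sequenced is not given in the sources used here. Values are FPKM, which divides fragments by exon length and library size, so that levels of different genes can be set side by side per length. The reads behind each value are unknown.

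The transcript of musclin, listed as *Ostn*, was read first as a check on the labels. It was at 0 in every BAT library of the WT mice and at 37.9, 31.6 and 30.3 FPKM in those of the MCK-Musclin mice. In iWAT it was at 0, 0 and 0.225 FPKM in WT and at 0, 5.17 and 4.21 FPKM in MCK-Musclin mice, so that MCK-Musclin replicate 1 was at 0 like WT. *Ostn* reads were thus found in the fat samples of the MCK-Musclin mice, and whether they came from fat cells was not tested. The marker sums of muscle, heart, brain, liver, enterocyte, adipocyte and brown adipocyte genes were each highest in the tissue labelled so. Fast skeletal muscle markers (10 genes, among them *Acta1* and *Myh4*) summed to 88264 FPKM in TA muscle and were also present in fat. They summed to 9.01, 575 and 2953 FPKM in WT iWAT and to 8.03, 107 and 119 FPKM in MCK-Musclin iWAT, with WT replicate 3 apart from the rest. In BAT they summed to 412, 576 and 378 FPKM in WT and to 1294, 618 and 878 FPKM in MCK-Musclin mice, so that the ranges of the genotypes did not overlap. Brown and beige adipocyte markers in iWAT summed to 508, 798 and 986 FPKM in WT and to 568, 176 and 85.4 FPKM in MCK-Musclin mice. RNA of the white fat samples was extracted with a commercial kit and that of all other tissues with TRIzol, so that extraction and tissue cannot be told apart between them.

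Only 1 of the 9 genes, *Mstn*, behaved in the 7 tissues as a transcript held mainly by skeletal muscle. Myostatin, its product, is a secreted member of the TGF-beta family that limits muscle growth. *Fndc5* and *Il15* were highest in heart, *Bdnf* in brain, *Metrnl* in small intestine, and the matrix-associated genes *Fstl1*, *Sparc* and *Dcn* in white adipose tissue. *Il6* did not reach 1 FPKM in any tissue. TA muscle was the highest tissue for 1 of the 8 genes that reached 1 FPKM, against 5.49% of the 18327 genes that did so in the whole table. That gene also exceeded the next tissue at least 2-fold, with 0.1 added to each value, as did 2.20% of those 18327 genes. With 1 library a tissue these are levels and an order with no spread and no test, and in bulk tissue fewer cells of a type cannot be told apart from less RNA per cell.

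The bases before the start sites are shown for *Mstn*, *Fndc5* and *Sparc*, since these genes had their highest level in skeletal muscle, heart and white fat, respectively. Each sequence holds the 250 bases before a RefSeq start, read along the strand of the gene. Capitals mark E-boxes (CANNTG, the motif bound by myogenic basic helix-loop-helix factors), the TATA box (TATAAA) and the GC box (GGGCGG), each searched on both strands. A match in letters is a description of the sequence and not a binding site.
Mstn promoter, GRCm38.p6 chr1:53061390-53061639, plus strand: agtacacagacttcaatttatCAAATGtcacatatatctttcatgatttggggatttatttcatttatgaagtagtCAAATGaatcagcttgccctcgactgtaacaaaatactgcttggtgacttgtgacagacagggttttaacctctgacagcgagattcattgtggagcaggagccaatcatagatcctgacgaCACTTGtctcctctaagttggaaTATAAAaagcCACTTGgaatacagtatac
Fndc5 promoter, GRCm38.p6 chr4:129136749-129136998, plus strand: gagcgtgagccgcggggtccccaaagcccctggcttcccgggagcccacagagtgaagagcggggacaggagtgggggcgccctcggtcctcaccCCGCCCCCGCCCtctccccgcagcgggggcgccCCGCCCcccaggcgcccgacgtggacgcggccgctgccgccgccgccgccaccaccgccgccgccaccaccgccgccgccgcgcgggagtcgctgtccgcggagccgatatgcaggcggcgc
Sparc promoter, GRCm38.p6 chr11:55420081-55420330, minus strand: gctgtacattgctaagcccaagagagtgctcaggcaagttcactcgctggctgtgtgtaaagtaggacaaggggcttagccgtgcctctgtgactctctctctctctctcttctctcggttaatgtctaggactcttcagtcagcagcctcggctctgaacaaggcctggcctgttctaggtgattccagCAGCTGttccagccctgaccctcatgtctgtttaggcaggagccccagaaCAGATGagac

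The *Mstn* sequence holds 4 E-boxes and 1 TATA box, which begins 29 bases before the start, and it has 3 CpG dinucleotides and a GC content of 38.4%. The *Fndc5* sequence holds 3 GC boxes, with no E-box and no TATA box, and it has 38 CpG dinucleotides and a GC content of 80.8%. No more CpG dinucleotides than that were found in 98.4% of all promoters of the same table. The *Sparc* sequence, which lies inside the gene as annotated in GENCODE, holds 2 E-boxes, 4 CpG dinucleotides and neither of the other motifs. Among all 32851 promoters of this length, 66.2% hold an E-box, 12.4% a TATA box and 32.7% a GC box, and the median CpG count is 6. Sequences were found for 7 of the 9 genes, which have 13 start sites among them, and *Il15* and *Dcn* were not among them. The *Mstn* start is the only one of the 13 with a TATA box.

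*Mstn* (ENSMUSG00000026100, GRCm38 chr1:53061640-53068079, plus strand, protein-coding) had 10.0 FPKM in TA muscle, 0.320 in small intestine, 0.159 in brown adipose tissue and 0.0419 in heart. It is listed at 0 in brain, white adipose tissue and liver. TA muscle held 95.1% of its FPKM summed over the 7 tissues, and with 0.1 added to each value TA muscle was 24.1 times the small intestine. This ratio was 8.36 with 1 added and 53.2 under median-ratio scaling. The profiles most like it, by Pearson's r of log2(FPKM + 1) over the 7 tissues, were those of *Sypl2*, *Gm45841* and *Cyp4f39*, all highest in TA muscle, with r at or above 0.995. For *Ostn*, the musclin gene, TA muscle had 7.43 FPKM, brain 0.164 and white adipose tissue 0.148. Both genes thus had 1 tissue far above the others.

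*Fndc5* (ENSMUSG00000001334, GRCm38 chr4:129136999-129144593, plus strand), which encodes the membrane protein from which irisin is cleaved, had 69.9 FPKM in heart, 24.4 in brain and 20.4 in TA muscle. It had 1.44 FPKM in white adipose tissue, 0.718 in small intestine, 0.206 in liver and 0.0973 in brown adipose tissue. Heart was 2.86 times brain, while brain and TA muscle differed 1.20-fold, each with 0.1 added. Heart was 1.67 times brain after rescaling to equal FPKM totals, and under median-ratio scaling TA muscle stood above brain, with heart 2.66 times TA muscle. *Clip4*, *Mlip* and *Fhod3* were closest to it in profile (r of 0.97 to 0.98), and each of them was highest in heart. The level in TA muscle was the highest of the 9 genes after *Sparc* and *Dcn*.

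The other 7 genes are protein-coding as well. On GRCm38, *Il15* lies at chr8:82331632-82403222 (minus strand), *Il6* at chr5:30013114-30019981 (plus) and *Bdnf* at chr2:109674700-109727007 (plus). *Metrnl* lies at chr11:121701544-121716306 (plus), *Fstl1* at chr16:37776873-37836514 (plus), *Sparc* at chr11:55394500-55423183 (minus) and *Dcn* at chr10:97479609-97518143 (plus).

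The cytokine genes had at most 2.18 FPKM in TA muscle. *Il15*, which encodes a growth factor of natural killer and memory T cells, had 5.46 FPKM in heart, 4.18 in small intestine, 2.78 in brown adipose tissue, 2.18 in TA muscle and 2.06 in white adipose tissue. It had 0.400 FPKM in liver and 0.257 in brain. Heart and small intestine changed places, with small intestine 1.03 times heart, when each library was rescaled to the same FPKM total. Under median-ratio scaling TA muscle came second, with heart 1.92 times TA muscle. Its closest profiles were those of *Kif16b*, *Clic5* and *Igf2r*, with r of 0.93 to 0.96. *Il6*, an inflammatory cytokine that working muscle can release, is listed at 0 in 6 tissues and had 0.142 FPKM in liver, and it is listed at 0 in all 6 BAT libraries too. *Bdnf*, a neurotrophin, had 3.34 FPKM in brain and 1.35 in heart, 0.566 in liver and 0.156 in TA muscle, and between 0.0155 and 0.115 in the other 3 tissues. Its exons overlap those of *Gm45346* on the opposite strand, and the alignment did not use strand, so reads of the 2 genes cannot be told apart. *Metrnl*, which encodes a secreted relative of meteorin, had 16.9 FPKM in small intestine and 7.82 in white adipose tissue, and between 0.926 and 2.66 in the other 5 tissues. The closest profiles were those of *Hnrnpa2b1*, *Insl6* and *Mgst2* for *Metrnl* (r = 0.99 each) and of *Fam81a*, *Ripor2* and *Srrm4* for *Bdnf* (r of 0.97 to 0.98).

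**Figure D1:**
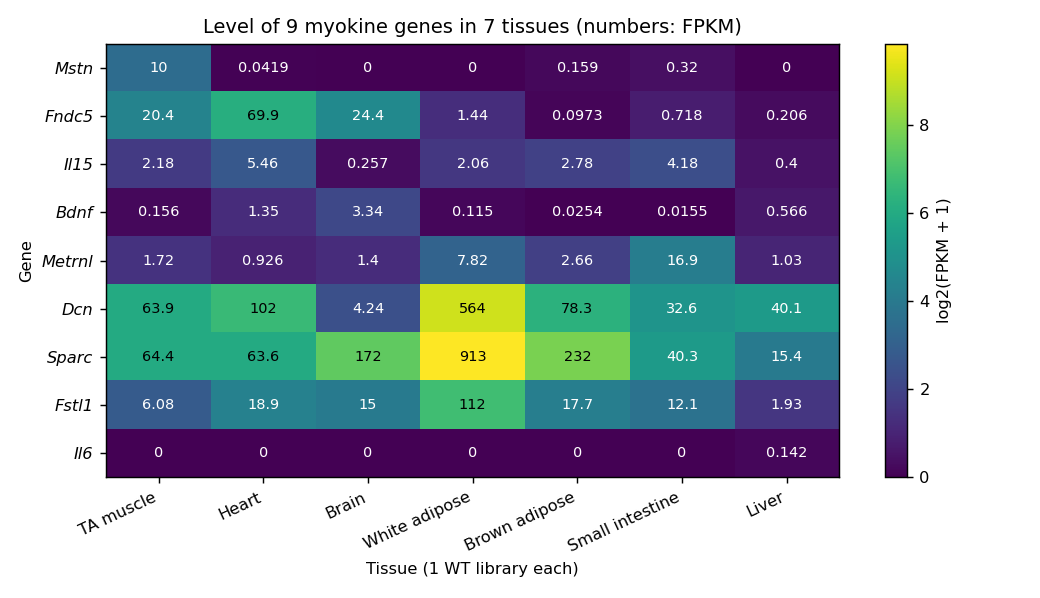
FPKM of the 9 genes (rows) in 1 WT library of each of 7 tissues (columns), with colour giving log2(FPKM + 1). *Mstn* was at 10.0 FPKM in TA muscle and at most 0.320 elsewhere, while *Sparc*, *Dcn* and *Fstl1* were brightest in white adipose tissue.

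In white adipose tissue the genes for matrix-associated proteins had the highest levels of the 9. *Sparc*, which encodes a collagen-binding glycoprotein of the matrix, had 913 FPKM in white adipose tissue, 232 in brown adipose tissue and 172 in brain. TA muscle and heart were alike at 64.4 and 63.6 FPKM, and small intestine and liver had 40.3 and 15.4. *Dcn*, which encodes the small proteoglycan decorin, had 564 FPKM in white adipose tissue, 102 in heart, 78.3 in brown adipose tissue and 63.9 in TA muscle. *Dcn* had 4.24 FPKM in brain, where *Sparc* had 172 FPKM. *Fstl1*, which encodes a secreted glycoprotein of the SPARC family, had 112 FPKM in white adipose tissue, between 12.1 and 18.9 in heart, brown adipose tissue, brain and small intestine, 6.08 in TA muscle and 1.93 in liver. The fibroblast markers (6 genes, among them *Pdgfra* and *Col1a1*) were also highest in white adipose tissue, with a sum of 683 FPKM against 70.0 in TA muscle, and their part in these levels was not tested.

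The profiles of *Fstl1* and *Sparc* over the 7 tissues had r = 0.91, the highest of the pairs of the 8 genes, and those of *Bdnf* and *Dcn* had the lowest, with r = -0.64. *Lmo2*, *Acvrl1* and *Cavin3* were closest to *Fstl1* and *Eya2*, *Gnb4* and *Pxdn* to *Sparc*, with r of 0.97 to 0.99. *Mmrn2*, *Fmo2* and *Ctla2b* were closest to *Dcn*, with r of 0.95 to 0.97, and all of these values rest on 7 libraries that differ in depth and composition. The 9 genes summed to 1600 FPKM in white adipose tissue, 0.381% of that library, and to 59.8 FPKM in liver. In TA muscle they summed to 169 FPKM, of which *Sparc* and *Dcn* made up 38.1% and 37.8%. The median share of the summed FPKM that lay in TA muscle was 6.27% over the 8 genes and 3.97% over all 18327 genes.

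**Figure D2:**
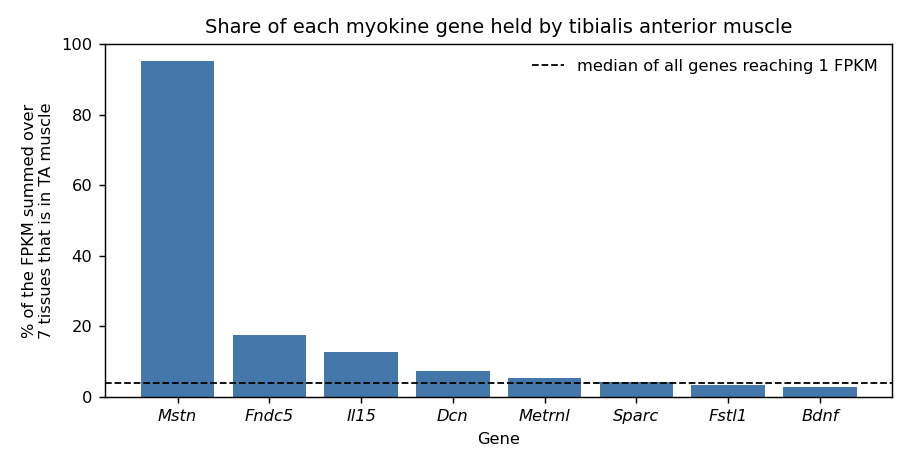
Percentage of the FPKM summed over 7 tissues that lay in TA muscle (y axis) for each of the 8 genes that reached 1 FPKM in some tissue (bars, 1 library a tissue). The *Mstn* bar stands at 95.1%, and the dashed line is the median of all genes that reached 1 FPKM, 3.97%.

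Receptors, antagonists, transducers and relatives of these proteins form a list of 39 genes. Of these, 14 were highest in white adipose tissue, 9 in brain, 8 in small intestine, 4 in liver, 2 in TA muscle and 1 each in heart and brown adipose tissue. *Wfikkn1*, counted in small intestine, had at most 0.204 FPKM and so did not reach 1 FPKM in any tissue. Of the 18327 genes that reached 1 FPKM in some tissue, 20.2% were highest in white adipose tissue, 29.7% in brain, 27.1% in small intestine, 8.18% in liver, 5.49% in TA muscle, 3.65% in heart and 5.72% in brown adipose tissue. Of the genes around myostatin, TA muscle was the highest tissue for *Wfikkn2*, a secreted antagonist, with 2.19 FPKM, and for *Smad3*, a transducer, with 13.2 FPKM. *Fst*, which encodes the antagonist follistatin, is listed at 0 in TA muscle and had 3.59 FPKM in white adipose tissue. *Ppargc1a*, the coactivator known to induce *Fndc5*, was highest in heart like *Fndc5*, with 20.0 FPKM. *Il15ra*, which encodes the chain that presents the *Il15* product, was highest in brown adipose tissue with 26.3 FPKM, and *Ntrk2*, which encodes the receptor of the *Bdnf* product, had 86.8 FPKM in brain and 31.0 in white adipose tissue.

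Whether the other myokine genes differed in fat of MCK-Musclin mice was asked in each depot on its own, with limma on log2(FPKM + 1) over all genes with a mean of at least 1 FPKM. A gene was called at the cutoff of the study, an unadjusted p under 0.05 with a log2 change beyond 0.5 in iWAT and 0.3 in BAT. The study applied this cutoff to DESeq2 results, so the test and the scale of the change differ from those used here. In iWAT, none of the 5 genes that passed the filter was called, where 5.94% of the 12197 genes tested were. No gene of the whole iWAT table had an adjusted p under 0.05 with limma. An unadjusted p under 0.05 was found for 2012 genes, 16.5% of those tested, and for 0 of the 5. Without WT replicate 1 there were 86 genes with an adjusted p under 0.05, without MCK-Musclin replicate 2 there were 2 and without MCK-Musclin replicate 3 there was 1. In BAT, 1 of the 5 genes that passed the filter, *Fndc5*, was called as higher, where 4.00% of the 10893 genes tested were called in either direction, and its adjusted p was 0.968. *Ostn* was the only gene of the BAT table with an adjusted p under 0.05 in limma (3.83e-06), which is 0.00918% of those tested. An unadjusted p under 0.05 was found there for 533 genes, 4.89% of those tested.

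*Fndc5* in BAT was at 2.69, 2.12 and 2.22 FPKM in WT and at 3.96, 2.50 and 4.29 FPKM in MCK-Musclin mice. MCK-Musclin replicates 1 and 3 were above every WT library, whereas replicate 2 was below WT replicate 1, so that the groups overlapped. The difference in log2(FPKM + 1) was 0.44 with a standard error of 0.18 and a 95% interval of 0.02 to 0.86 (limma, unadjusted p = 0.0431, adjusted p = 0.968), and the exact two-sided permutation test gave p = 0.2. The call was lost without WT replicate 2 (difference of 0.39), WT replicate 3 (0.41), MCK-Musclin replicate 1 (0.37) or MCK-Musclin replicate 3 (0.32), and also with no filter on low values (0.44). Over all alternatives the limma adjusted p was between 0.725 and 0.995.

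The 2 BAT libraries with the most *Fndc5*, MCK-Musclin replicates 3 and 1, were also those with the highest sums of fast muscle markers, 878 and 1294 FPKM. Among the WT BAT libraries, replicate 2 had the highest sum, 576 FPKM, and the least *Fndc5*, 2.12 FPKM. Of the 10 fast muscle markers 9 were called higher in MCK-Musclin BAT, where 202 of the 10893 genes tested were called higher. None of the 9 had a limma adjusted p under 0.05. *Fndc5* was at 0.231 FPKM for each 1000 FPKM of these markers in TA muscle and at 3.06 to 6.52 FPKM in the BAT libraries. The part of muscle RNA in the *Fndc5* values was not tested. *Mstn*, the gene held by TA muscle, was at 0, 0.0175 and 0.112 FPKM in WT BAT and at 0.0980, 0.0186 and 0.114 FPKM in MCK-Musclin BAT, and the groups overlapped.

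**Figure D3:**
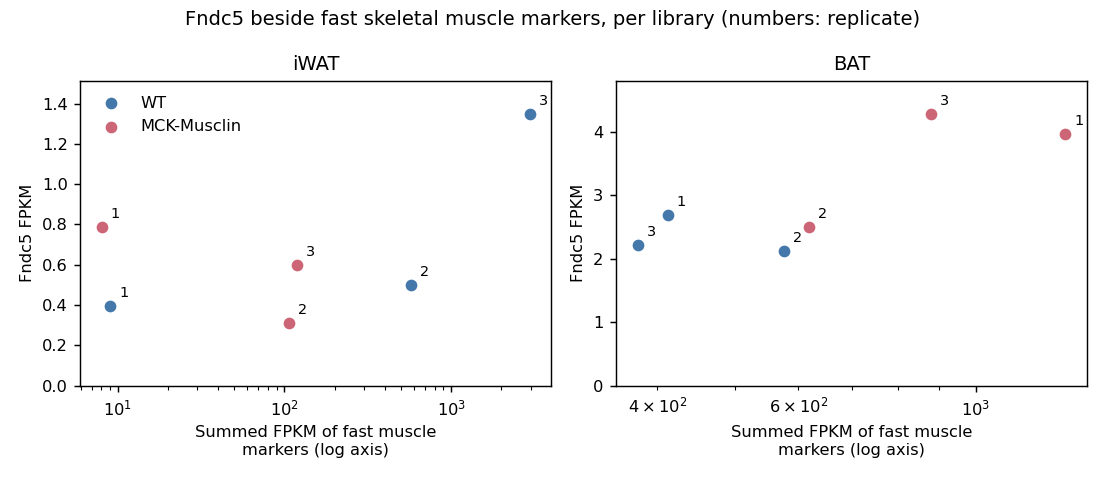
*Fndc5* FPKM (y axis, from 0) against the summed FPKM of 10 fast skeletal muscle markers (x axis, log scale) in each iWAT and BAT library, with WT in blue, MCK-Musclin in red and the replicate number beside each point. In BAT the MCK-Musclin points reach 3.96 and 4.29 FPKM at the highest marker sums. In iWAT the WT library with a sum of 2953 FPKM has the highest *Fndc5*, 1.35 FPKM. The iWAT library with the lowest sum, 8.03 FPKM, has the second highest, 0.787 FPKM.

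In iWAT *Fndc5* was at 0.394, 0.497 and 1.35 FPKM in WT and at 0.787, 0.309 and 0.599 FPKM in MCK-Musclin mice, below the filter. The highest value belonged to WT replicate 3, the library with the most muscle markers. The second highest belonged to MCK-Musclin replicate 1, the library with the lowest marker sum, 8.03 FPKM. The part of muscle RNA in these values was not tested. The groups overlapped (log2 difference -0.13, exact permutation p = 0.8), and without WT replicate 3 the difference was 0.10. With 3 libraries against 3 the smallest p that this test can give is 0.1.

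*Il15* was the only one of the 5 genes tested in iWAT whose groups did not overlap, as was the case for 23.3% of all genes tested there. Of those 12197 genes, MCK-Musclin was above WT without overlap for 2183 and below for 663. The median difference over all of them was 0.06. *Il15* was at 3.24, 3.42 and 2.96 FPKM in WT and at 5.04, 4.01 and 3.43 FPKM in MCK-Musclin mice. The lowest MCK-Musclin library, replicate 3, exceeded the highest WT library by less than the spread within either group. The difference was 0.28 with a standard error of 0.14 and an interval of -0.05 to 0.61 (limma adjusted p = 0.358), and it did not pass the test. It remained positive under all alternatives in which it was tested, from 0.17 without MCK-Musclin replicate 1 to 0.39 without MCK-Musclin replicate 3, with adjusted p of 0.347 to 0.589. Under median-ratio scaling the difference was 0.22, and after quantile normalization it was 0.21. Values of T cell and macrophage markers are set beside those of *Il15*. The T cell marker *Cd3e* was at 11.6, 9.57 and 12.3 FPKM in WT and at 17.5, 19.2 and 18.8 FPKM in MCK-Musclin iWAT. The groups did not overlap for the T cell markers *Cd3d* (5.68 to 6.23 FPKM in WT, 8.54 to 9.08 in MCK-Musclin) and *Cd8a* (at most 6.06 FPKM in WT, at least 7.80 in MCK-Musclin) either. Macrophage markers (6 genes) summed to 513 to 568 FPKM in WT and to 550 to 782 FPKM in MCK-Musclin iWAT, so that these ranges overlapped. The part of T cells and macrophages in the *Il15* values was not tested. In BAT *Il15* was at 0.823, 0.873 and 1.24 FPKM in WT and at 0.985, 1.03 and 0.934 FPKM in MCK-Musclin mice, where the MCK-Musclin values lay within the WT range (exact permutation p = 1).

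*Metrnl* overlapped between groups in both depots. It was at 6.51, 7.14 and 5.35 FPKM in WT iWAT and at 9.38, 5.30 and 7.26 FPKM in MCK-Musclin iWAT, with a difference of 0.16 (interval -0.30 to 0.62, limma adjusted p = 0.723). In BAT it was at 1.89, 0.637 and 1.62 FPKM in WT and at 1.49, 1.33 and 1.87 FPKM in MCK-Musclin mice, with a difference of 0.14 (interval -0.39 to 0.67, adjusted p = 0.978). WT replicate 2 was the lowest BAT library, and without it the difference was -0.11. *Bdnf* was between 0.0485 and 0.118 FPKM in all 6 BAT libraries, below the filter.

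**Figure D4:**
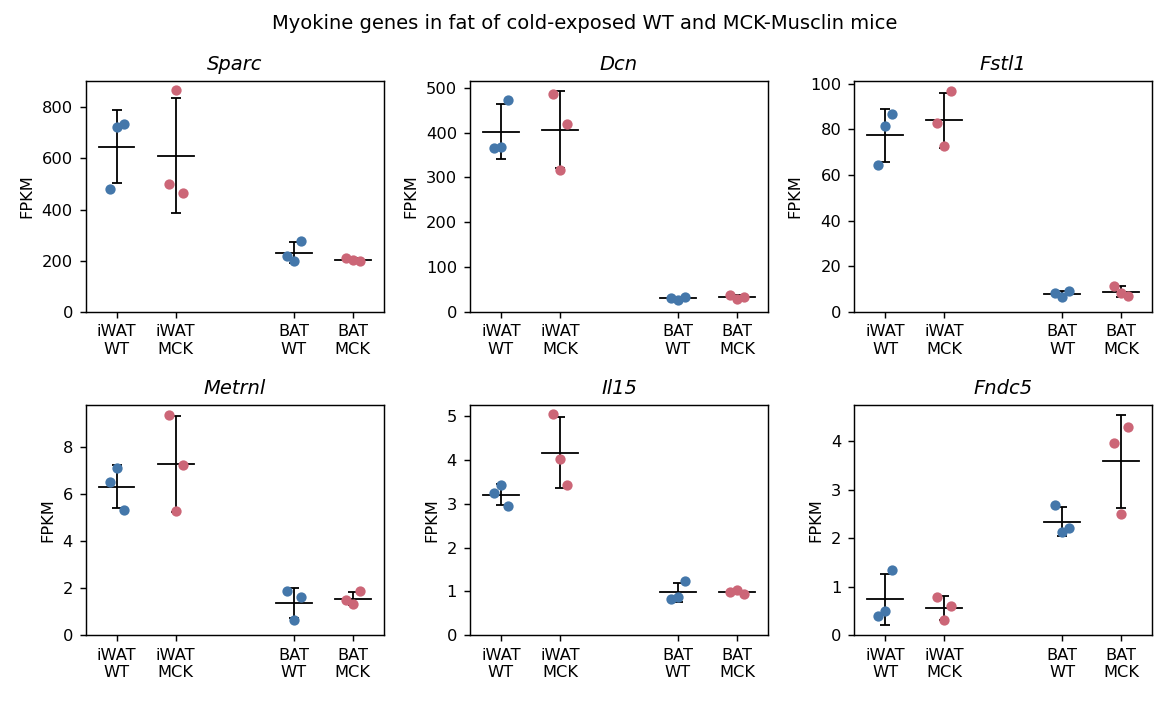
FPKM (y axes, from 0) of 6 genes in iWAT and BAT of WT (blue) and MCK-Musclin (red, MCK) mice exposed to cold, with 1 point per library, the mean as a horizontal line and the SD as error bars (n = 3 per group). Only *Il15* in iWAT has all red points above all blue points, and *Fndc5* in BAT has 2 of 3 red points above all blue points.

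The genes for matrix-associated proteins overlapped between groups as well. *Sparc* was at 481, 724 and 734 FPKM in WT iWAT and at 498, 869 and 465 FPKM in MCK-Musclin iWAT, a difference of -0.11 (interval -0.76 to 0.53, limma adjusted p = 0.869). In BAT it was at 219, 198 and 277 FPKM in WT and at 211, 203 and 197 FPKM in MCK-Musclin mice, a difference of -0.17 (interval -0.47 to 0.13, adjusted p = 0.968). *Sparc* was the most abundant of the 6 genes in every library of either depot. The interval in iWAT allowed a change of either sign, and the sign itself turned without MCK-Musclin replicate 1 or 3.

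*Dcn* was at 366, 368 and 474 FPKM in WT iWAT and at 485, 316 and 419 FPKM in MCK-Musclin iWAT, with means of 403 ± 61.5 and 407 ± 85.2 (SD, n = 3 each) and an interval of -0.43 to 0.43. In BAT *Dcn* was at 31.0, 26.8 and 33.1 FPKM in WT and at 38.2, 29.4 and 32.6 FPKM in MCK-Musclin mice, a difference of 0.14 (interval -0.16 to 0.43, limma adjusted p = 0.968). Only MCK-Musclin replicate 1 of BAT exceeded all WT libraries.

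*Fstl1* was at 64.3, 81.3 and 86.6 FPKM in WT iWAT and at 83.0, 72.6 and 96.7 FPKM in MCK-Musclin iWAT, a difference of 0.12 (interval -0.24 to 0.48, limma adjusted p = 0.730). In BAT it was at 8.08, 6.29 and 8.98 FPKM in WT and at 11.5, 8.15 and 6.87 FPKM in MCK-Musclin mice, a difference of 0.15 (interval -0.31 to 0.61, adjusted p = 0.972). MCK-Musclin replicate 1 held the highest BAT values of both *Fstl1* and *Dcn*, and it also had the highest fibroblast marker sum, 79.8 FPKM against 30.1 to 69.0 in the other 5 libraries, and the highest macrophage marker sum, 117 FPKM against 36.9 to 48.1. Their part in these values was not tested. Without that library the *Fstl1* difference in BAT was -0.04 and the *Dcn* difference 0.04.

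**Figure D5:**
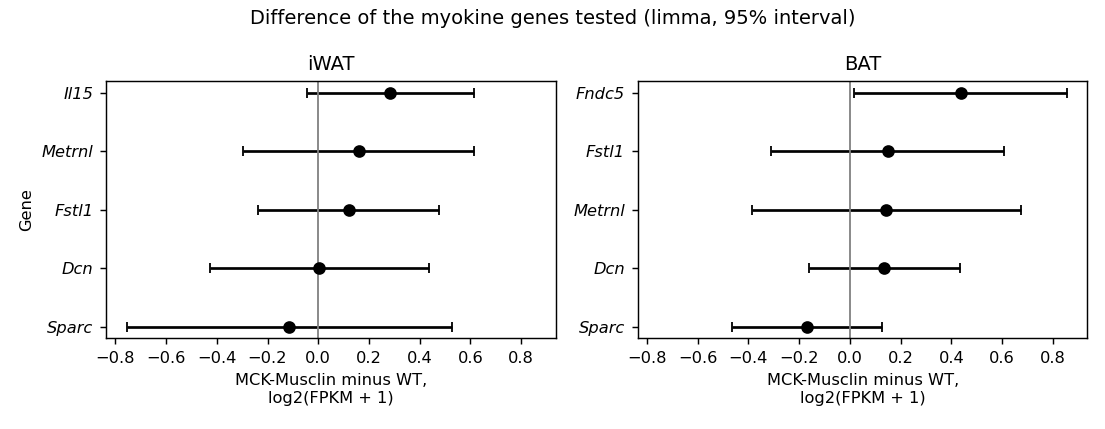
Difference between MCK-Musclin and WT mice in log2(FPKM + 1) (x axis) for the 5 genes tested in iWAT (left) and the 5 in BAT (right), with points for the limma estimate and bars for its 95% interval (3 against 3 libraries). Each interval holds 0 except that of *Fndc5* in BAT, which runs from 0.02 to 0.86.

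The depots themselves had unlike myokine profiles in cold-exposed WT mice, set side by side with no test since the tables were made separately. The mean level in iWAT was 13.3 times that in BAT for *Dcn*, 9.95 times for *Fstl1*, 4.59 times for *Metrnl*, 3.28 times for *Il15* and 2.79 times for *Sparc*. *Fndc5* went the other way, with a mean in BAT 3.14 times that in iWAT. In iWAT it was below the filter, with 1.35 FPKM in WT replicate 3 and at most 0.497 in the other WT libraries. Summed FPKM was 364710 to 368500 in the WT iWAT libraries and 709981 to 720317 in the WT BAT libraries. These ratios were not rescaled for that. The brown adipose library of the 7 tissues had 0.0973 FPKM of *Fndc5*, against 2.12 to 2.69 FPKM in WT BAT after cold, while *Sparc* was at 232 FPKM there and at 198 to 277 FPKM after cold. Temperature and table cannot be told apart in this comparison.

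Of the 39 receptors, antagonists, transducers and relatives, 37 are listed and 34 were tested in iWAT, where 3 were called higher and 1 lower, and none had an adjusted p under 0.05. The 4 called are 11.8% of those tested, against 5.94% of all genes tested in iWAT. Among all genes tested there, 615 were called higher and 110 lower. *Il2rb*, which encodes the shared beta chain of the receptors for the *Il15* and *Il2* products, was at 8.25, 6.70 and 10.0 FPKM in WT and at 13.8, 11.2 and 15.1 FPKM in MCK-Musclin mice (0.63, limma adjusted p = 0.162). *Il2rg*, which encodes the common gamma chain, was at 64.1, 34.6 and 50.1 FPKM in WT and at 78.6, 81.3 and 85.6 FPKM in MCK-Musclin mice (0.75, adjusted p = 0.171). Lymphocytes express both genes, though not they alone. The T cell markers given above did not overlap between the groups either, and the part of such cells in these values was not tested. *Il15ra* overlapped, with 10.6 to 20.0 FPKM in WT and 12.6 to 14.5 FPKM in MCK-Musclin mice.

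*Ngfr*, which encodes a neurotrophin receptor, was at 4.88, 3.26 and 3.43 FPKM in WT iWAT and at 5.92, 5.21 and 8.00 FPKM in MCK-Musclin iWAT (0.60, limma adjusted p = 0.196). *Ppargc1a* was at 7.16, 7.23 and 6.51 FPKM in WT and at 6.34, 2.96 and 2.01 FPKM in MCK-Musclin mice (-0.84, adjusted p = 0.233), and replicates 2 and 3, the lowest, also had the lowest brown and beige marker sums. The groups did not overlap for any of these 4 genes, which are among 8 of the 34 tested without overlap, a share close to the 23.3% of all genes tested in iWAT. The call of *Il2rb* was lost without WT replicate 2 (0.50) and that of *Ngfr* without MCK-Musclin replicate 3 (0.45). The call of *Ppargc1a* was lost without WT replicate 1 (-0.82), WT replicate 2 (-0.82), MCK-Musclin replicate 2 (-0.76) or MCK-Musclin replicate 3 (-0.56). Over all alternatives the limma adjusted p of these 4 genes was between 0.0592 and 0.471.

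None of the genes around myostatin was called in iWAT as tested. *Gdf11*, the closest relative of *Mstn*, was at 3.14, 2.52 and 2.36 FPKM in WT and at 3.78, 4.33 and 4.37 FPKM in MCK-Musclin mice, without overlap and just below the log2 cutoff of 0.5 (0.49, limma adjusted p = 0.157). It was called higher with pseudocounts of 0.1 (0.63) and 0.01 (0.64), after rescaling to equal FPKM totals (0.53), and without WT replicate 1 (0.58) or MCK-Musclin replicate 1 (0.55). The receptor gene *Acvr2a* and the antagonist gene *Fst* overlapped between the groups, at 2.92 to 3.41 and 5.26 to 7.01 FPKM in WT and at 2.47 to 3.33 and 3.55 to 7.07 FPKM in MCK-Musclin mice.

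In BAT all 39 are listed and 26 were tested, of which none was called higher and 1 lower. That is 3.85% of those tested, close to the 4.00% of all genes tested in BAT. *Met*, which encodes a receptor tyrosine kinase reported to bind decorin, was at 3.02, 3.12 and 3.21 FPKM in WT and at 2.10, 1.71 and 2.86 FPKM in MCK-Musclin mice (-0.37, limma adjusted p = 0.968). The groups did not overlap, as was the case for 10.0% of all genes tested in BAT. Yet the call was lost without any 1 of WT replicates 1 to 3 or MCK-Musclin replicates 1 and 2 (-0.39 to -0.25). It was also lost with no filter on low values (-0.37), with a replicate block (-0.37) and under all 3 other scalings (-0.38 to -0.36). The limma adjusted p was 0.887 to 0.995 over all alternatives. Of the 26 tested, 4 had no overlap between the groups, against 10.0% of all genes tested in BAT, and MCK-Musclin was lower in each. Besides *Met* these were *Acvr2a* (1.79 to 1.99 FPKM in WT, 1.67 to 1.76 in MCK-Musclin), *Fst* and *Stat3*. *Fst* was at 1.14 to 1.43 FPKM in WT and at 0.724 to 1.00 in MCK-Musclin mice. *Stat3* was at 9.13 to 10.2 FPKM in WT and at 7.10 to 9.01 in MCK-Musclin mice. The receptor genes of *Fndc5* product irisin, *Itgav* and *Itgb5*, overlapped between the groups. So did *Il15ra*, at 13.2 to 18.9 FPKM in WT and 14.7 to 17.2 FPKM in MCK-Musclin BAT.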

How the data were processed

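RNA-Seq of 7 tissues (1 library each) and of iWAT and BAT of cold-exposed WT and MCK-Musclin mice (3 biological replicates each) was used. The authors aligned reads without strand to mm10 (GRCm38) and deposited FPKM per gene, and the submitters' processing notes name fastp, Bowtie2 2.4.1, HISAT2 2.1.0 and Cuffdiff. The deposited iWAT table also holds the authors' own comparison (log2 fold changes, p-values, FDR and mean signals), which was not used. No read counts were analysed here, so depth is unknown. For the 7 tissues and for BAT, relative depth read from the steps between low values was 0.917 to 1.05 times that of heart and 0.892 to 1.11 times that of BAT WT replicate 1. Summed FPKM per library was 393682 to 711437 over the 7 tissues, 676362 to 720852 in BAT and 364710 to 384104 in iWAT, and the 10 most abundant genes took 17.0 to 52.4%, 48.4 to 51.3% and 11.9 to 13.0% of it. Within iWAT, summed FPKM was 364710 to 368500 in the WT libraries and 376564 to 384104 in the MCK-Musclin libraries.

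From the FPKM values, 287 lines that repeat a gene were dropped for the 7 tissues and likewise for BAT. Each depot was fitted with limma 3.58.1 (R 4.3.3) on log2(FPKM + 1) for genes whose mean FPKM reached 1, with eBayes and a trend, and Benjamini-Hochberg adjustment over all genes tested. The cutoffs were those of the study. Genes under the filter had an exact two-sided permutation test (scipy 1.17.1, Python 3.11.15). Fold changes on this scale understate those of low genes. The limma p-values set the difference between genotypes against the spread between these mice, which eBayes moderates over all genes. The limma step was also run on simulated data with planted changes, scored by adjusted p. That run does not test calls made by unadjusted p, as used here. Positions came from GENCODE for GRCm38 and promoters from RefSeq (GRCm38.p6).

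Genes named were the 9 members, the 39 partner genes, the cell type markers, *Ostn*, and for each member that reached 1 FPKM the 3 genes closest in profile among 13430 that reached 5 FPKM. Members and lists were chosen with earlier results of these data known. Alternatives were pseudocounts of 0.1 and 0.01 (1 and 0.01 for the 7 tissues, where 0.1 was used), no filter, a mean FPKM of at least 5, rescaling to equal FPKM totals, median-ratio scaling, quantile normalization, eBayes without trend or robust, a replicate block, other cutoffs and leaving out each library. *Wfikkn1* and *Wfikkn2* were not analysed here in iWAT. Of the lymphocyte markers only those of T cells are given, and the rest are not reported here.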

Additional observations from a re-analysis of the deposited data

How the results depend on the processing

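The count of myokine genes called in iWAT was 0 under every alternative run. In BAT it fell from 1 to 0 with no filter on low values, with a mean FPKM of at least 5 (which removed *Fndc5*), with a log2 cutoff of 0.5 and with an adjusted p under 0.05, and it was 0 to 1 when each library was left out in turn. The count of partner genes called was 2 (without WT replicate 2) to 6 in iWAT when each library was left out, and in BAT it was 0 to 1 when each was left out and 0 with no filter, a mean FPKM of at least 5, rescaling to equal FPKM totals, median-ratio scaling, quantile normalization or a replicate block. The gene called in BAT changed: *Stab1* (-0.46) without MCK-Musclin replicate 1, *Smoc1* (-0.46) without replicate 2 and *Met* (-0.51) without replicate 3. In iWAT *Bgn*, *Fmod*, *Gdf11*, *Itgav* and *Socs3* were called only under some alternatives. With the replicate block, 1 myokine gene was called in BAT and 0 in iWAT. Whether the numbers pair the mice is not known, and correlations of so few libraries cannot settle it. For each gene tested, the mean of its genotype was taken from log2(FPKM + 1), and these deviations were correlated between libraries over all genes. The deviations of same-numbered libraries correlated at 0.23, 0.06 and 0.11 in iWAT and at -0.10, -0.00 and 0.01 in BAT. Those of differently numbered libraries of the 2 genotypes correlated at -0.18 to 0.07 in iWAT and at -0.08 to 0.08 in BAT.

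No called value changed sign. Of 157 refits of the members 13 turned the sign of a difference that had not been called. For *Dcn* in iWAT it was -0.0495 after rescaling to equal FPKM totals, -0.0747 under median-ratio scaling and -0.0487 after quantile normalization. Leaving out each library gave -0.13 to 0.17 for *Dcn*, -0.0165 to 0.34 for *Metrnl*, -0.0066 to 0.22 for *Fstl1* and -0.40 to 0.0518 for *Sparc* in iWAT, and -0.11 to 0.30 for *Metrnl* and -0.0373 to 0.30 for *Fstl1* in BAT. The cause was not tested. *Mstn* was at least 2-fold above the next tissue in TA muscle under all 4 alternatives. The number of genes of the whole table called, the background of the counts above, was 504 to 1055 in iWAT and 216 to 575 in BAT over the filters, scalings and libraries left out. Depth behind single FPKM values is unknown, which limits what can be said of genes near 0.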
